A study of Mus musculus with 4 samples.

Results

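The genes described here are 36 genes of cell proliferation, 25 that act in mitosis and 11 that act in DNA replication, chosen by name from the 56493 genes of the deposited count table. All 36 were listed in the table. RNA was taken from the epidermis of dorsal mouse skin, which had been shaved and separated from the dermis with sodium thiocyanate. The conditional knockout group (cKO) held 2 libraries from mice in which Stim1 and Stim2, whose proteins open calcium channels when the endoplasmic reticulum store empties, were knocked out in epithelium by Cre under the keratin 14 promoter (K14-Cre). The control group (F/F) held 2 libraries from Stim1/2fl/fl mice, which carry the floxed alleles. The K14 promoter is active in basal keratinocytes and related epithelia, so the deletion is aimed at these cells and their descendants and not at the other cells of the layer. Age and sex were not given in the sources used here, and the labels do not say whether the libraries of a group came from separate mice, so p-values measure only the spread between these samples, which may be technical.

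In the epidermis, cells divide in the basal layer and in the lower hair follicle, and cells that move upward leave the cycle. DNA replication genes such as the MCM helicase are transcribed from late G1 through S phase under the control of E2F factors. Mitotic genes such as Cdk1, Top2a and Cenpf are transcribed later, in G2 and M phase, through promoter elements called CHR and CCAAT boxes. Their transcripts mark cycling cells and are usually scarce in a tissue where few cells cycle at any time.

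The promoters of the members are shown first, as a feature that the choice of members did not use. RefSeq promoter windows on GRCm38.p6 run from 250 bases before to 50 bases after the gene start, and 21 of the 25 mitotic and 10 of the 11 replication members had a window. The words searched on both strands were TTTGAA (the CHR), TTTAAA (a CHR variant), CCAAT (the box of that name), and the E2F-type words TTGGCGC (the first of the set), TTGCCGC (the second), TTCGCGC (the third) and TTCCCGC (the last), which can overlap each other. TTTGAA occurred in 16 of 21 mitotic windows (76.2%), in 1 of 10 replication windows and in 18.1% of all 27025 windows. TTTGAA or TTTAAA occurred in 19 of 21 mitotic windows, in 4 of 10 replication windows and in 27.8% of all windows, and TTTAAA with or without the other was in 13.2% of all windows. An E2F-type word occurred in 6 of 10 replication windows, in 4 of 21 mitotic windows (19.05%) and in 9.69% of all windows. CCAAT was in 19 of 21 mitotic and 8 of 10 replication windows, and in 37.9% of all windows. A match describes the letters only and does not show that a factor binds there.

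The windows of the mitotic members Cenpf (chr1:189688057-189688336, minus strand) and Top2a (chr11:99024160-99024439, minus strand) and of the replication members Rrm1 (chr7:102441445-102441724, plus strand) and Pcna (chr2:132253151-132253430, minus strand) are printed up to base 280 of 300, with every matched word in capitals. They were chosen as the members with the highest mean CPM (TMM-scaled counts, described with the tests) in each group.
Cenpf: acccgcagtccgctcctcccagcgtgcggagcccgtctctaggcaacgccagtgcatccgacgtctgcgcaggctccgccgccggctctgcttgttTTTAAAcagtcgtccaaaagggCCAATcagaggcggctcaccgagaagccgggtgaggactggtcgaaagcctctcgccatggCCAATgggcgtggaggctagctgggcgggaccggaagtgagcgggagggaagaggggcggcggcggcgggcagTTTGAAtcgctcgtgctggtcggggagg
Top2a: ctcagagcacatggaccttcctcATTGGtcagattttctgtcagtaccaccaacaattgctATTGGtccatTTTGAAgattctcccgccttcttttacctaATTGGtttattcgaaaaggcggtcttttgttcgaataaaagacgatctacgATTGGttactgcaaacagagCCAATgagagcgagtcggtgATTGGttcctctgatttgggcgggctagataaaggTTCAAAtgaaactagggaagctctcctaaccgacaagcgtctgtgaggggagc
Rrm1: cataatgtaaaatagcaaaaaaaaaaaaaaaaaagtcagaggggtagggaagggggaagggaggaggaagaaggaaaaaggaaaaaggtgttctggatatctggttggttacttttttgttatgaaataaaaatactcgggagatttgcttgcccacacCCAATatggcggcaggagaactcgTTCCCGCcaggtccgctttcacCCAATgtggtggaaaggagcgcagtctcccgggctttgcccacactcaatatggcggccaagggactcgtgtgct
Pcna: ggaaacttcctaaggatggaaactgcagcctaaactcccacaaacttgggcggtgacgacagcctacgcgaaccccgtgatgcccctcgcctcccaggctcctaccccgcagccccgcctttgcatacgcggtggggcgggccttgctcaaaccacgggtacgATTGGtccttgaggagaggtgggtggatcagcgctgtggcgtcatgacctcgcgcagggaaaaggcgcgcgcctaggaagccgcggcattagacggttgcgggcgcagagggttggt
Cenpf held 1 TTTGAA, 1 TTTAAA and 2 CCAAT words, and Top2a held 2 TTTGAA and 6 CCAAT words. Rrm1 held 2 CCAAT words and 1 E2F-type word, and Pcna held 1 CCAAT word.

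Library totals were 282190 and 118858 counts in cKO replicates 1 and 2 and 200293 and 322426 counts in F/F replicates 1 and 2. Of the 36 members, 28 and 19 had a count in the cKO libraries and 24 and 26 in the F/F libraries, and cKO replicate 2, the shallowest, detected the fewest. A library at 0 for a gene allows up to 3 counts, which corresponds to 1.06 and 2.52 counts per 100000 in cKO replicates 1 and 2 and to 1.498 and 0.930 in F/F replicates 1 and 2. Stim1 had 23 and 6 counts (cKO) and 24 and 62 counts (F/F), and Stim2 had 0 and 1 against 3 and 18. These counts come from transcript 3' ends and the labels do not say which exons are floxed, so they do not check the deletion. The basal keratinocyte markers, Krt5 and Krt14 among them, were present in every library at 468 to 792 counts per 100000, and of the 3 endothelial markers Cdh5 and Kdr were at 0 in all 4 and Pecam1 had at most 1 count per library.

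The pooled mitotic counts were 197 and 41 in cKO replicates 1 and 2 and 78 and 99 in F/F replicates 1 and 2. As a share of each library this was 69.8 counts per 100000 in cKO replicate 1 (95% Wilson interval 60.7 to 80.3) and 34.5 in cKO replicate 2 (25.4 to 46.8). The shares were 38.9 in F/F replicate 1 (31.2 to 48.6) and 30.7 in F/F replicate 2 (25.2 to 37.4). Only cKO replicate 1 stood apart, with an interval above those of the other 3 libraries, and cKO replicate 2 lay between the F/F libraries. The group means were 52.2 ± 24.97 counts per 100000 (SD, n = 2) in cKO and 34.8 ± 5.83 (SD, n = 2) in F/F, a log2 ratio of 0.58 that is smaller than the spread between the cKO libraries. Without cKO replicate 1 the log2 ratio on library totals was -0.014, and with TMM scaling, a correction of library sizes that centres the bulk of genes, it was 0.38. The intervals cover counting error only, and reads without collapsed molecular identifiers are not independent molecules. No test was made of the pooled shares, since the members were chosen with results known, and an exact test of 2 against 2 libraries cannot go below a two-sided p of 0.333. In bulk tissue, a different number of cycling cells and a different amount of these RNAs per cycling cell cannot be told apart.

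The pooled replication counts were 45 and 14 in cKO and 38 and 53 in F/F. The shares were 15.9 (11.9 to 21.3) and 11.8 (7.02 to 19.8) counts per 100000 in cKO replicates 1 and 2, and 19.0 (13.8 to 26.0) and 16.4 (12.6 to 21.5) in F/F replicates 1 and 2. Both cKO values lay below both F/F values, but all 4 intervals overlapped and the shares of cKO replicate 1 and F/F replicate 2 were close. The means were 13.9 ± 2.95 (SD, n = 2) in cKO and 17.7 ± 1.79 (SD, n = 2) in F/F, a log2 ratio of -0.35. This order depended on 1 gene, since the log2 ratio without Rrm1 was 0.041. All 36 members together took 85.8 and 46.3 counts per 100000 in cKO and 57.9 and 47.1 in F/F, so the groups overlapped, with a log2 ratio of 0.33 that became -0.18 without cKO replicate 1.

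**Figure D1:**
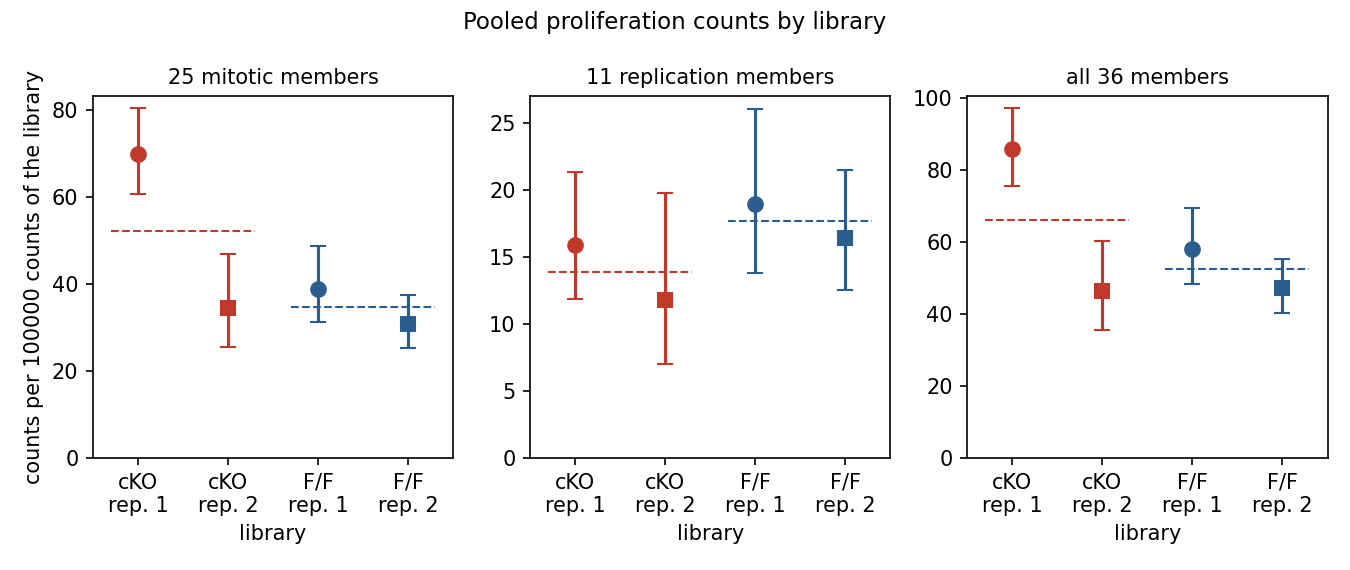
Pooled counts of the mitotic members, the replication members and all 36 members per 100000 counts of each library, with points for libraries, bars for 95% Wilson intervals and dashed lines for group means. The mitotic share of cKO replicate 1 is 69.8 against 30.7 to 38.9 in the other 3 libraries, while the replication shares run from 11.8 to 19.0 with overlapping intervals.

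Whether the mitotic groups overlapped depended on the scaling. With library totals alone the median log2 fold change over all 4243 genes tested was -0.24, so the log2 ratios of 0.58 (mitotic) and -0.35 (replication) on that scale stand beside a median of -0.24 and not of 0. With TMM scaling the mitotic values were 70.04 and 41.4 counts per 100000 in cKO and 36.2 and 27.4 in F/F, so that both cKO values lay above both F/F values (log2 ratio 0.81). Under the same scaling the replication values were 16.0 and 14.1 in cKO and 17.6 and 14.7 in F/F, which overlapped (log2 ratio -0.10). Against the summed counts of the basal keratinocyte markers, the layer where epidermal cells divide, the mitotic count was 88.1 and 73.7 per 1000 in cKO and 68.9 and 64.2 in F/F. The replication count on this scale was 20.1 and 25.2 in cKO and 33.6 and 34.3 in F/F. With the marker sum as denominator cKO replicate 1 stood less far apart, and its marker share was itself the highest, at 792 counts per 100000 against 468 in cKO replicate 2 and 565 and 479 in F/F. The order on this scale depended on 2 of the 7 markers, singled out after their values were seen, whose groups did not overlap and lay in opposite directions. Krt14 had 1077 and 267 counts (cKO) and 174 and 271 counts (F/F), with an edgeR log2 fold change of 2.04 (adjusted p 0.0507). Krt15 had 208 and 138 counts (cKO) and 535 and 657 counts (F/F), with an edgeR log2 fold change of -1.06 (unadjusted p 0.0368, adjusted p 0.526). Without Krt14 in the sum, the mitotic count was 170 and 142 per 1000 in cKO and 81.4 and 77.8 in F/F, and without Krt15 it was 97.1 and 98.1 in cKO and 131 and 112 in F/F, the opposite order. Without both, it was 207 and 272 in cKO and 184 and 161 in F/F. The replication count was 38.8 and 48.4 in cKO and 39.7 and 41.7 in F/F without Krt14, 22.2 and 33.5 against 63.7 and 59.8 without Krt15, and 47.3 and 92.7 against 89.8 and 86.2 without both. No intervals were computed for the rescaled values. In cKO replicate 2 they rest on 41 mitotic and 14 replication counts, so these orders may lie within counting error.

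Single members were tested in an edgeR quasi-likelihood fit over the 4243 genes that passed a count filter, with values given as TMM-scaled CPM. Of the 36 members 5 passed the filter, Mki67, Top2a, Cenpf, Prc1 and Rrm1, and 0 were called at an adjusted p under 0.05, against 0.848% of all genes tested (0.66% higher and 0.189% lower in cKO). At an unadjusted p under 0.05 there was 1, Cenpf, against 8.39% of all genes tested (4.22% higher and 4.17% lower). DESeq2 and limma-voom also called 0 members, with 0 and 1 at an unadjusted p under 0.05, and called 43 and 15 of all 4243 genes. The other 31 members were too low to test in this fit, and 22 of the 32 members with a count had fewer than 20 counts over the 4 libraries.

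Among 10 members with at least 20 counts in all, 6 had their highest share in cKO replicate 1, against 23.3% of the 6136 genes of the table with that many counts. The highest share was in cKO replicate 2 for 1 (17.7% of those genes), in F/F replicate 1 for 2 (26.9%) and in F/F replicate 2 for 1 (32.1%). Both cKO shares lay above both F/F shares in 2 of them, Cenpf and Birc5, against 11.4% of those genes. Both lay below in 2, Ube2c and Rrm1, against 27.5% of those genes, and with TMM scaling the libraries of Ube2c overlapped. Members could pass the cut of 20 counts through the library in which they were high. In cKO replicate 1 lay 11 of the 20 counts of Birc5, 15 of the 24 of Cdca8 and 12 of the 21 of Mcm7. The tallies are therefore a description and no support for a difference.

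**Figure D2:**
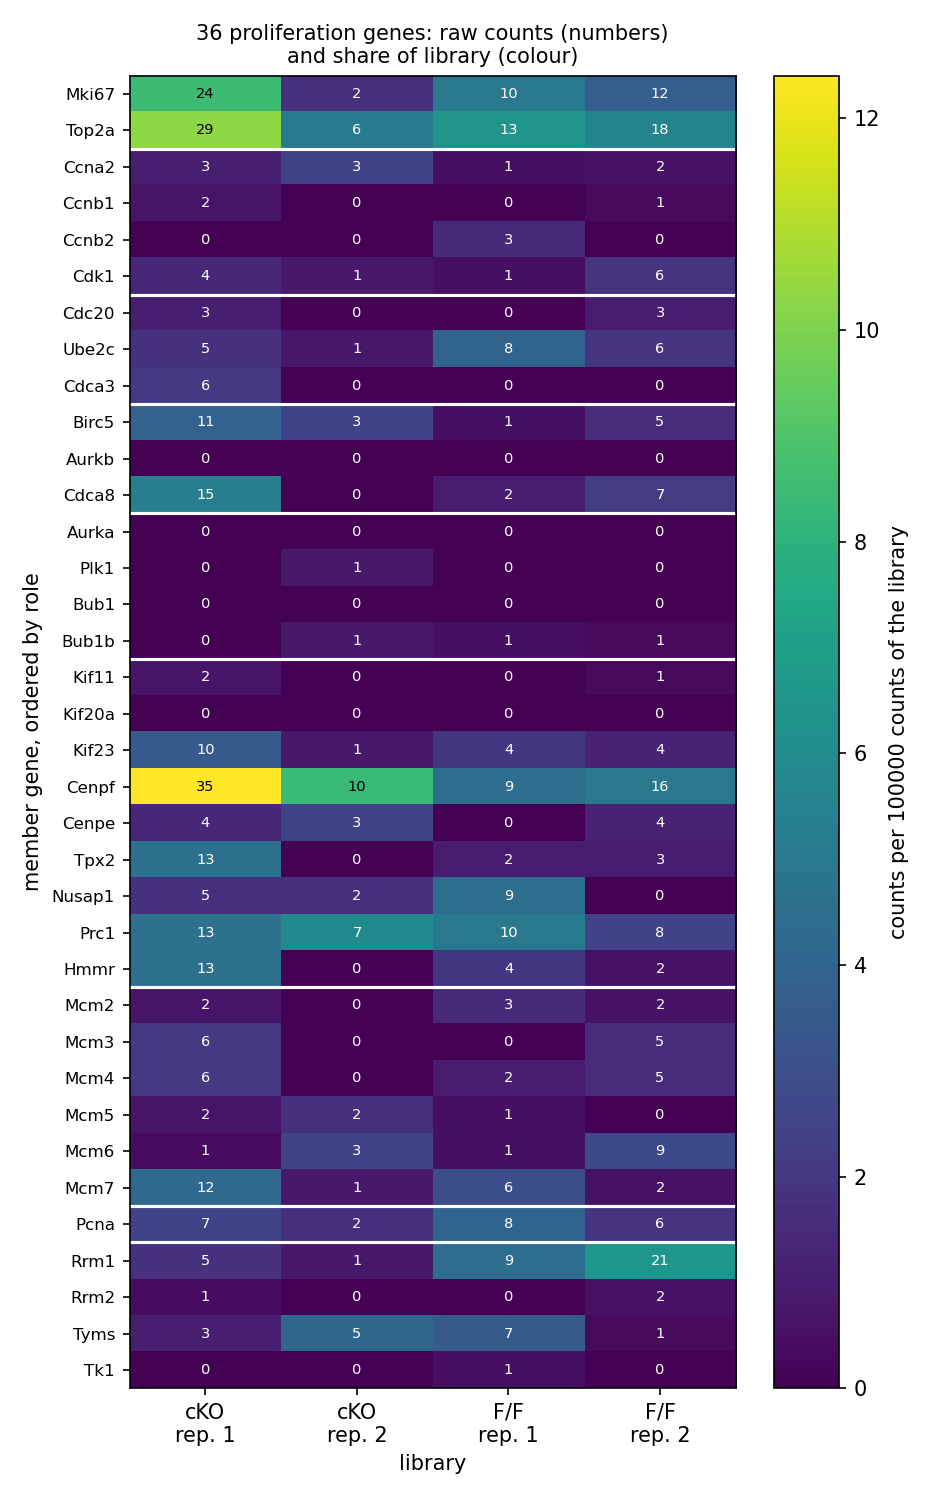
Raw counts (numbers) and counts per 100000 of the library (colour) of the 36 members in each library, with white lines between roles. Cenpf, Top2a and Mki67 hold the highest mitotic counts, with 35, 29 and 24 in cKO replicate 1, Rrm1 is highest in F/F replicate 2 with 21, and 4 genes are at 0 in every library.

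Mki67 encodes the Ki-67 protein that coats mitotic chromosomes and marks cycling cells, and Top2a encodes the topoisomerase that untangles sister chromatids. Mki67 (ENSMUSG00000031004, GRCm39 chromosome 7, minus strand, 135291513 to 135318090) had 24 and 2 counts (cKO) and 10 and 12 counts (F/F). The cKO libraries thus lay on either side of the F/F libraries. It averaged 59.8 ± 52.7 CPM (SD, n = 2) for cKO against 45.8 ± 10.6 CPM (SD, n = 2) in F/F, with a log2 fold change of 0.56 (SE 0.75, edgeR adjusted p 0.955). Without cKO replicate 1 the log2 fold change of Mki67 was -1.03, a value that rests on those 2 counts for cKO. Top2a (ENSMUSG00000020914, chromosome 11, minus strand, 98883769 to 98915015) had 29 and 6 counts (cKO) and 13 and 18 counts (F/F). Only cKO replicate 1 was above the rest, with 117 CPM against 57.5 to 69.4 CPM in the other libraries. Its log2 fold change was 0.61 (SE 0.60, edgeR adjusted p 0.902), and it was 0.06 without cKO replicate 1.

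The 9 genes of the spindle, the kinetochore and the spindle midzone build and steer the apparatus that separates chromosomes. They had 95 and 23 counts (cKO) and 38 and 38 counts (F/F), or 33.7 and 19.4 counts per 100000 in cKO and 19.0 and 11.8 in F/F. Both cKO shares lay above both F/F shares, although cKO replicate 2, with an interval of 12.9 to 29.04, was level with F/F replicate 1, with an interval of 13.8 to 26.04. Cenpf, a protein of the outer kinetochore and nuclear matrix that peaks in G2 and M phase (ENSMUSG00000026605, chromosome 1, minus strand, 189372803 to 189420283), had 35 and 10 counts (cKO) and 9 and 16 counts (F/F). It averaged 127 ± 20.6 CPM (SD, n = 2) for cKO against 49.6 ± 2.17 CPM (SD, n = 2) in F/F, and the groups did not overlap. The log2 fold change of Cenpf was 1.37 (SE 0.58, edgeR unadjusted p 0.0337, adjusted p 0.502), and it ran from 1.12 to 1.51 over 13 alternatives, in which its adjusted p was 0.348 or higher. The highest share of Cenpf was in cKO replicate 1, yet its fold change without that library was 1.12. Cenpf took 12.4 and 8.41 counts per 100000 in cKO and 4.49 and 4.96 in F/F. The order of the pooled spindle shares rested on this gene.

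Prc1, which bundles microtubules of the midzone for cytokinesis (ENSMUSG00000038943, chromosome 7, plus strand, 79944198 to 79966007), had 13 and 7 counts (cKO) and 10 and 8 counts (F/F). Its exons share 911 bases with Rccd1 on the opposite strand, which had 0 to 2 counts. Unlike for Top2a, the highest value of Prc1 was in cKO replicate 2, at 78.7 CPM against 25.5 to 53.4 CPM in the other libraries. That value rests on 7 counts in the shallowest library, which is too few to show a different pattern. The log2 fold change was 0.72 (SE 0.77, edgeR adjusted p 0.926), and it was 0.26 without F/F replicate 2. The motor Kif11, the midzone motor Kif23, the kinetochore motor Cenpe and the spindle factors Tpx2, Nusap1 and Hmmr had 0 to 13 counts in any library. The mitotic motor Kif20a was at 0 in all 4. Tpx2, which activates Aurora A, and Hmmr, a microtubule-binding protein, are singled out after their values were seen, since each had 13 counts in cKO replicate 1 and 0 in cKO replicate 2, against 2 to 4 counts in the F/F libraries. The 0 in cKO replicate 2 allows 2.52 counts per 100000, which does not place that library below the F/F libraries in either gene.

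Cdk1 and the cyclins Ccna2, Ccnb1 and Ccnb2, which form the kinase that drives entry into mitosis, together had only 9 and 4 counts in cKO and 5 and 9 in F/F. As shares these were 3.19 and 3.37 counts per 100000 in cKO and 2.496 and 2.79 in F/F, with overlapping intervals. Of the chromosomal passenger complex, which corrects the attachment of chromosomes to the spindle, Birc5 (survivin) had 11 and 3 counts (cKO) and 1 and 5 counts (F/F). Cdca8 (borealin) had 15 and 0 counts (cKO) and 2 and 7 counts (F/F), and the 0 in cKO replicate 2 does not place it below the F/F libraries at that depth. Aurkb, the kinase of the complex, was at 0 in every library.

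Ube2c, the ubiquitin-conjugating enzyme of the anaphase-promoting complex, had 5 and 1 counts (cKO) and 8 and 6 counts (F/F). The exons of Ube2c share 592 bases with Tnnc2, a skeletal muscle gene on the opposite strand that had 1 and 6 counts (cKO) and 114 and 116 counts (F/F). Whether the counting used strand is not given in the sources used here, so reads of the pair may not be told apart. Without Ube2c the mitotic log2 ratio was 0.67. Cdc20, the activator of the complex, and Cdca3, which acts in degrading the mitotic inhibitor Wee1, had 0 to 6 counts. The mitotic kinases Aurka and Plk1 and the spindle checkpoint genes Bub1 and Bub1b reached no more than 1 count per library, and Aurka and Bub1 had none.

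**Figure D3:**
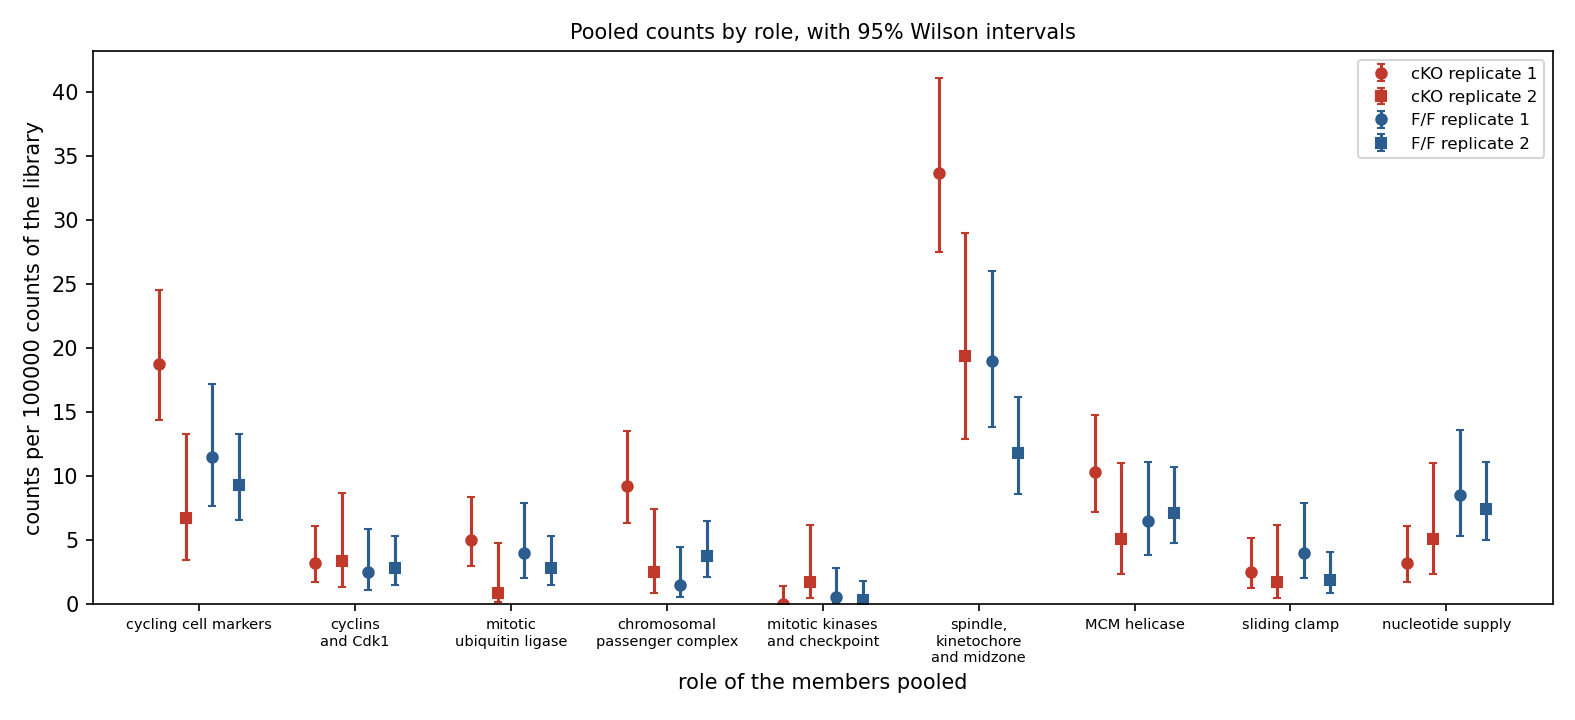
Pooled counts of each role per 100000 counts of the library, with points for libraries and bars for 95% Wilson intervals. The spindle group runs from 11.8 to 33.7 with cKO replicate 1 highest, and the nucleotide supply group is the one replication role in which both cKO libraries (3.19 and 5.05) lie below both F/F libraries (8.49 and 7.44).

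The MCM genes, whose proteins form the helicase that opens replication origins, had 29 and 6 counts (cKO) and 13 and 23 counts (F/F) over their 6 genes. As shares these were 10.3 and 5.05 counts per 100000 in cKO and 6.49 and 7.13 in F/F. The cKO shares lay on either side of the F/F shares, but the interval of cKO replicate 2 (2.31 to 11.01) covered both F/F shares. Mcm7 (chromosome 5, minus strand, 138162845 to 138170684) had 12 and 1 counts (cKO) and 6 and 2 counts (F/F). Mcm2, Mcm3, Mcm4, Mcm5 and Mcm6 had 0 to 9 counts in any library. Pcna, the sliding clamp of the replicative polymerases (chromosome 2, minus strand, 132091082 to 132095234), had 7 and 2 counts (cKO) and 8 and 6 counts (F/F), and its libraries overlapped. Exons of Mcm7 share 321 bases with Ap4m1 and 64 with Cops6, and those of Pcna share 499 with AV099323, all on the opposite strand.

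The genes that supply nucleotides for DNA synthesis had lower pooled shares in both cKO libraries. Rrm1, Rrm2, Tyms and Tk1 together had 9 and 6 counts (cKO) and 17 and 24 counts (F/F), or 3.19 and 5.05 counts per 100000 in cKO against 8.49 and 7.44 in F/F. The order rests on Rrm1, the large subunit of ribonucleotide reductase (ENSMUSG00000030978, chromosome 7, plus strand, 102090902 to 102118978), with 5 and 1 counts in cKO and 9 and 21 in F/F. It averaged 15.7 ± 6.35 CPM (SD, n = 2) for cKO against 57.5 ± 13.5 CPM (SD, n = 2) in F/F, and the groups did not overlap. The log2 fold change of Rrm1 was -1.73 (SE 0.92, edgeR unadjusted p 0.0825, adjusted p 0.681), and it was between -2.35 and -1.496 in the 12 alternatives in which it was tested. Without F/F replicate 2, the library with 21 of its counts, Rrm1 did not pass the filter and has no value. Without Rrm1 the other 3 genes of the role had shares of 1.42 and 4.21 counts per 100000 in cKO and 3.99 and 0.930 in F/F, which overlapped. Tyms, the thymidylate synthase, had 3 and 5 counts (cKO) and 7 and 1 counts (F/F), Rrm2, the small subunit, had 0 to 2, and Tk1, the thymidine kinase, had 1 count in F/F replicate 1 and 0 elsewhere.

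Rrm1 is the next gene after Stim1 on chromosome 7, in the same direction, and 4375 bases separate their annotated ends in the table. Stim1 was 80.2 ± 18.1 CPM (SD, n = 2) for cKO against 163.0 ± 49.4 CPM (SD, n = 2) in F/F, a log2 fold change of -0.98 (SE 0.52, edgeR adjusted p 0.671). On the other side of Stim1, the genes within 200 kb with at least 20 counts were Rhog, a small GTPase, and Pgap2, which acts in the processing of GPI anchors. Rhog had 11 and 9 counts (cKO) and 10 and 14 counts (F/F), and Pgap2 had 15 and 3 against 7 and 23, with edgeR log2 fold changes of 0.46 and -0.18 (adjusted p 0.965 and 0.992). The part that the position next to a targeted allele plays in the counts of Rrm1 was not tested.

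The ratio of replication to mitotic counts does not depend on how a library is scaled. It was 0.228 (95% interval, from the Wilson interval of replication counts among both, 0.165 to 0.315) and 0.341 (0.188 to 0.621) in cKO replicates 1 and 2, and 0.487 (0.331 to 0.716) and 0.535 (0.384 to 0.746) in F/F replicates 1 and 2. Both cKO values lay below both F/F values, with means of 0.285 ± 0.0799 (SD, n = 2) and 0.511 ± 0.0341 (SD, n = 2), but the interval of cKO replicate 2 overlapped those of both F/F libraries. Without Rrm1 the ratios were 0.203 and 0.317 in cKO and 0.372 and 0.323 in F/F, so that cKO replicate 2 and F/F replicate 2 were level. Without Rrm1 and Cenpf, the replication and mitotic members with the most counts, cKO replicate 2 (0.419) was level with F/F replicate 1 (0.4203) and above F/F replicate 2 (0.386). Over lists of 40 other replication and 63 other mitotic genes, a comparison added after the data were seen, the ratios were 0.797 and 0.939 in cKO and 1.11 and 1.22 in F/F, in the same order as in the members. Over the genes that the table annotates with the GO terms DNA replication and cell division, members left out, they were 0.239 and 0.211 in cKO and 0.236 and 0.2195 in F/F, and the groups overlapped.

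**Figure D4:**
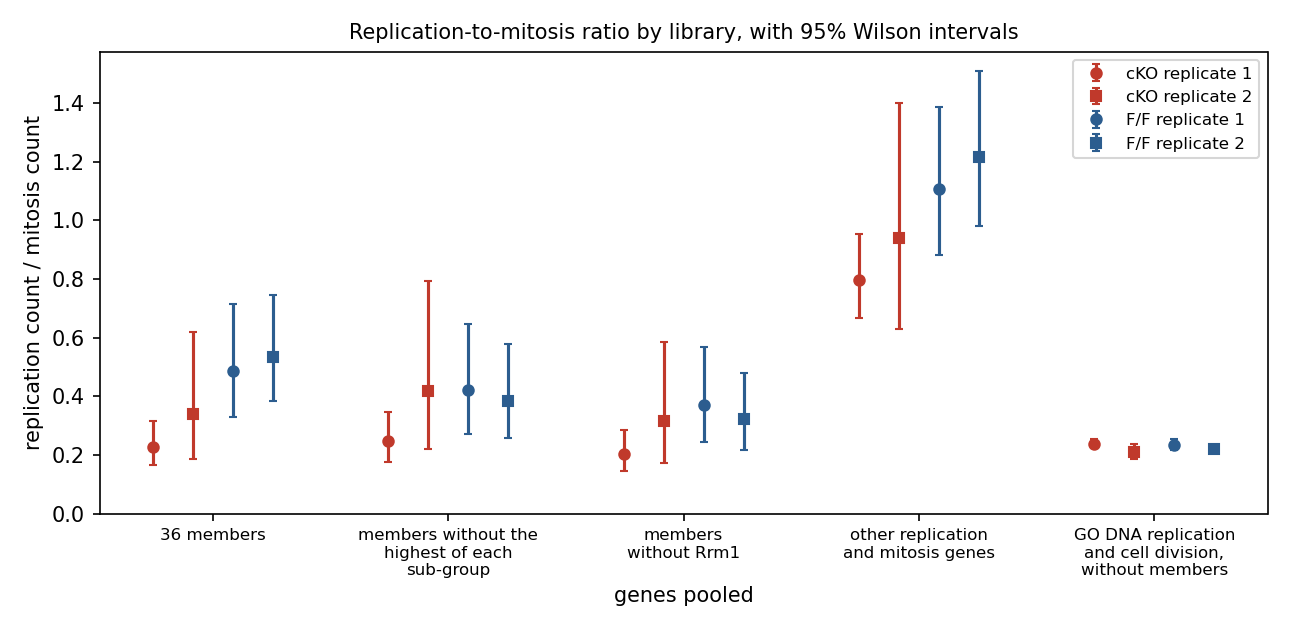
Replication count divided by mitosis count in each library, for the members, for 2 reduced sets of members and for 2 wider sets of genes, with bars for 95% intervals derived from the Wilson interval of the replication share. Both cKO libraries lie below both F/F libraries for the 36 members and for the lists of other genes, and the groups overlap for the GO terms and without the highest members.

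The wider lists of the cycle were described in the same way, and edgeR called 0 genes in any of them. With TMM scaling, the median log2 fold change over all 4243 genes tested was 0.01. The list of other mitotic genes had a count in 56 of 63 genes and took 96.03 and 41.2 counts per 100000 in cKO and 70.9 and 47.1 in F/F, again with cKO replicate 1 highest. Of its 3 tested genes 2 had a fold change above 0 and 1 below, with a median of 0.13. Smc4, a condensin subunit, had 37 and 8 counts (cKO) and 25 and 20 counts (F/F). The separase inhibitor Pttg1 had 28 and 4 against 21 and 15, and the microtubule polymerase Ckap5 had 21 and 4 against 19 and 15.

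The list of other replication genes took 76.5 and 38.7 counts per 100000 in cKO and 78.4 and 57.4 in F/F, which overlapped, with 3 of 5 tested genes above 0 and a median of 0.02. Rpa1, which coats single-stranded DNA, had 2 and 1 counts (cKO) and 11 and 19 counts (F/F) (log2 fold change -2.64, edgeR adjusted p 0.474). Dnmt1, which copies DNA methylation at the fork, had 34 and 2 counts (cKO) and 5 and 14 counts (F/F) (log2 fold change 1.27, adjusted p 0.741). Its cKO shares lay on either side of the F/F shares, but the 2 counts in cKO replicate 2 do not place that library below the F/F libraries. The histone chaperone Nasp and the clamp loader subunit Rfc1 had log2 fold changes of 0.36 and 0.02.

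Genes of G1 and S phase entry took 82.2 and 74.9 counts per 100000 in cKO and 129.8 and 110.1 in F/F, and the order held with TMM scaling (82.5 and 89.9 against 120.7 and 98.3). All 4 tested genes had fold changes below 0, with a median of -0.48, and none was called. Cyclin D2 (Ccnd2), which starts the G1 kinase cascade, had 107 and 30 counts (cKO) and 134 and 177 counts (F/F) (log2 fold change -0.72, edgeR adjusted p 0.716). Ccnd2 alone took 37.9 and 25.2 counts per 100000 in cKO and 66.9 and 54.9 in F/F. With TMM scaling the order of the pooled list rested on this gene. Cdc25a, the phosphatase that activates S phase kinases, had 4 and 4 counts (cKO) and 9 and 29 counts (F/F) (log2 fold change -1.43, adjusted p 0.716). Cdk6 had 57 and 28 counts against 67 and 71 (log2 fold change -0.11), and Ccnd3, which was not tested, had 11 and 9 against 4 and 13.

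Genes abundant in cycling cells, among them Ptma, H2az1, Tuba1b and Hmgb1, took 574 and 506 counts per 100000 in cKO and 688 and 654 in F/F, but with TMM scaling the libraries overlapped. Ptma, a chromatin-associated protein, had counts of 1038 and 336 for cKO against 913 and 1345 for F/F, and the histone variant H2az1 had 108 and 53 against 81 and 112. The tubulin Tuba1b had 79 and 51 against 89 and 188, and Hmgb1 had 101 and 26 against 91 and 102. Of their 12 tested genes 7 had fold changes above 0 and 5 below, with a median of 0.16. The inhibitors of the cycle took 336 and 467 counts per 100000 in cKO and 356 and 461 in F/F. Of their 11 tested genes 6 had fold changes above 0, with a median of 0.14. The CDK inhibitor Cdkn1a had 144 and 63 counts (cKO) and 81 and 229 counts (F/F), Sfn (14-3-3 sigma) had 540 and 395 against 414 and 931, and Btg1 had 100 and 35 against 59 and 87. Tob1, an antiproliferative protein, had 17 and 6 against 24 and 44 (log2 fold change -0.97, edgeR adjusted p 0.716).

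Mitogens and their receptors took 36.1 and 21.03 counts per 100000 in cKO and 42.4 and 74.1 in F/F, with the same order under TMM scaling. Of 4 tested genes 1 had a fold change above 0, with a median of -0.70. The lowest fold change among them was that of Btc (betacellulin, a ligand of the EGF receptor family), with 8 and 0 counts in cKO and 19 and 92 in F/F (log2 fold change -3.17, standard error 0.80, edgeR adjusted p 0.106). The share of Btc was 2.83 and 0 counts per 100000 in cKO, 9.49 in F/F replicate 1 and 28.5 in F/F replicate 2. The F/F libraries thus differed widely, and the order of the pooled shares of this list rested on Btc. Erbb2 had 19 and 7 counts against 20 and 52, Fgfr2 had 16 and 1 against 13 and 20, and Igf1r had 33 and 5 against 18 and 29.

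**Figure D5:**
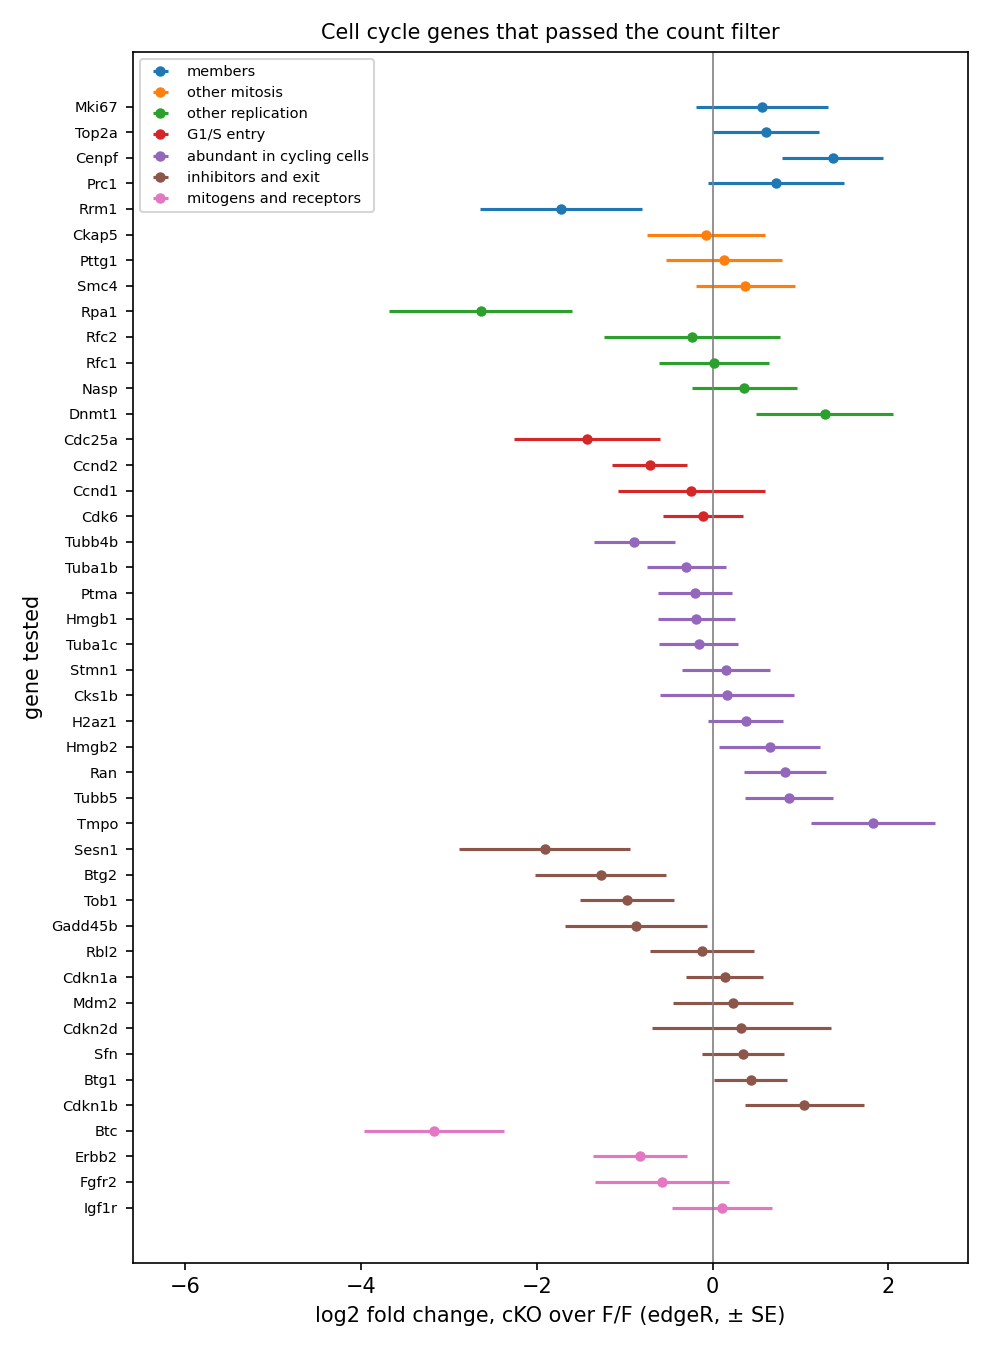
edgeR log2 fold change of cKO over F/F with its standard error for every member and every gene of the wider cell cycle lists that passed the count filter. Mitotic members lie at 0.56 to 1.37, Rrm1 lies at -1.73, and 0 of the genes shown passed an adjusted p under 0.05.

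Markers of other cells differed between the libraries beside these values. Markers of the growing hair (matrix, inner root sheath and shaft) were at 39.0 and 27.8 counts per 100000 in cKO and 138.8 and 129.02 in F/F, with 10 of 17 genes at any count. Most of these counts were Tchh, with 99 and 26 in cKO against 257 and 398 in F/F. The keratins Krt25, Krt28, Krt34, Krt71, Krt72 and Krt86 of this list had 0 to 7 counts in any library. Krt27, Krt31, Krt33a, Krt33b, Krt35 and Krt73 were at 0 in every library. Krt85, also among the 17 genes of the list, has no values of its own here. Skeletal muscle markers were at 3.90 and 10.1 in cKO and 140.8 and 100.5 in F/F, and edgeR called 4 of the 7 tested lower in cKO, against 0.189% of all genes tested. Stress keratins were at 246 and 306 in cKO and 348 and 500 in F/F. Of these 4 genes edgeR called 2 higher in cKO, Krt6a and Krt6b (log2 fold changes 4.87 and 6.48), against 0.66% of all genes tested. Krt16 was at 0.16 and Krt17 at -1.39, neither of them called. Fibroblast markers were at 3.19 and 45.4 in cKO and 14.98 and 9.92 in F/F, and leukocyte markers at 84.7 and 215 in cKO and 322 and 191 in F/F. cKO replicate 1, with the highest mitotic share, thus had the highest basal keratinocyte share and the lowest fibroblast and leukocyte shares. Of its 2236 basal marker counts 1077 were Krt14, while its Krt15 share, 73.7 counts per 100000, was the lowest of the libraries. Its suprabasal keratinocyte share was not the highest, at 1367 against 1560 in F/F replicate 2. The part of these cell types in the proliferation counts was not tested.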

How the data were processed

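Libraries were made from epidermal total RNA by tagging transcript 3' ends (QIAseq UPX) and adapted to an MGI sequencer, per the labels' protocols. The authors deposited 1 table of raw counts of reads for each gene and library. The submitters' processing notes name Trim Galore 0.6.7, Trimmomatic 0.39, cutadapt 3.7, STAR 2.7.10a, featureCounts 2.0.1 and GRCm39. The use of strand, the collapsing of molecular identifiers and the treatment of reads with several alignments are not given in the sources used here. Gene positions are those of the table, and promoter positions are those of RefSeq on GRCm38.p6.

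Members' counts were summed and divided by the library total, with 95% Wilson intervals (scipy 1.17.1). edgeR 4.0.16 (R 4.3.3) tested cKO against F/F over all genes kept by filterByExpr (minimum count 10, minimum total 15), with TMM factors (0.833 to 1.12), glmQLFit, glmQLFTest and Benjamini-Hochberg adjustment. The standard error of a gene was taken as its fold change, on the log2 scale and without sign, over the root of its F value. Alternatives were other scalings, filters and denominators, a replicate block, DESeq2 1.42.0, limma-voom (limma 3.58.1) and each library left out.

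Members, lists and tests were chosen with earlier results of these data known. The rule for names was members with at least 20 counts, the 4 genes of highest mean CPM in each fixed list, called genes, Stim1 and Stim2. One gene of the list of other mitotic genes that the rule names is not reported here. In the marker lists only genes that a result turns on, the stress keratins and keratins of the hair list are named. Roles among the members follow textbook function and were assigned after the counts were seen, as was the choice to single out Tpx2, Hmmr, Tyms and Tk1 and the neighbours of Stim1. Of the 36 members, 12 share exon bases with another gene and 20 have a stretch of at least 150 bases that is at least 95% identical to another GENCODE M21 transcript. For Cenpf the longest such stretch was 194 bases. Some genes that share a stretch with Cenpf were counted, such as Eprs with 32 and 12 counts (cKO) and 15 and 50 counts (F/F), and others were at 0. The copies of Ccnb1 were all at 0 counts.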

Additional observations from a re-analysis of the deposited data

How the results depend on the processing

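The order of the groups depended on single libraries, single genes and the denominator. Leaving out each library in turn, the log2 ratio of cKO to F/F ran from -0.014 to 1.003 for the mitotic share (without cKO replicate 1 and without cKO replicate 2, respectively, and 0.38 without cKO replicate 1 under TMM scaling), from -0.59 to -0.15 for the replication share, from -0.18 to 0.71 for all 36 members, from -1.16 to -0.58 for the replication-to-mitosis ratio and from -1.03 to 1.11 for Mki67. The share of the GO cell division genes was at -0.25 on library totals, beside the median of -0.24 over all genes, and at 0.0099 with TMM scaling. The replication share was at -0.10 with TMM scaling, 0.10 against basal markers without Krt14, -1.15 against basal markers without Krt15, 0.041 without Rrm1 and 0.29 without Rrm1 under TMM scaling. Against basal markers without Krt15, the mitotic share was at -0.31 and all 36 members at -0.54. The replication-to-mitosis ratio, at -0.84 for the members, was at -0.27 without the highest member of each group, -0.42 without Rrm1, -0.42 over the lists of other genes and -0.019 over the GO terms. The cause of these shifts was not tested. The GO sets, the ratio over the lists of other genes and without Rrm1, the marker sums without Krt14 or Krt15, the nucleotide supply genes without Rrm1, the crossed block and the combined settings were added after seeing the data.

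The number of members called was 0 in the reported test and in its 13 alternatives. The number of all genes called was 36 as reported, 75 without a count filter, 55 with a mean of at least 10 CPM, 43 with DESeq2, 15 with limma-voom, 52 to 86 with 1 library left out, and 41 (26 higher and 15 lower, against 28 and 8) with library totals. With the replicate block it was 17, with 0 members called; the labels do not say that a number marks a shared source. Same-numbered libraries had a correlation of deviations of -0.187, and a block with crossed numbers called 147 genes and 0 members. Of the 32 detected members 22 had under 20 counts, which limits the precision of each, and no limit of detection was computed.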
